A study of Homo sapiens with 4 samples.

Results

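The genes described here are 38 that serve homologous recombination and the Fanconi anaemia pathway, taken by symbol from a fixed list out of 56865 annotated genes. All 38 were found and all 38 passed the filter on low counts. They were measured by RNA-seq of poly(A)-selected RNA in MDA-MB-468, an established human line from a breast cancer that the labels class as triple negative. The groups were 2 DMSO libraries and 2 libraries from cells given MS1943 at 5 µM for 3 days, with all 4 labelled passage 12. How long the controls had DMSO is not labelled. The series title calls MS1943 an EZH2 degrader, and EZH2 is the methyltransferase of Polycomb repressive complex PRC2. Nothing was deleted or introduced in either group. The labels describe duplicate dishes but do not say whether they came from separate cultures, so p-values measure only the spread between these libraries, which may be technical. The MS1943 libraries have several letters in their titles (BCD and FGH) and the DMSO libraries a single one (A and E). Whether such letters stand for pooled dishes is not stated.

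Homologous recombination repairs a broken chromosome by copying an intact sister. The broken end is cut back to single-stranded DNA, BRCA1, PALB2 and BRCA2 bring the strand-exchange recombinase onto it, and helicases later take the joined molecules apart. The Fanconi pathway acts where the strands are crosslinked: a core ubiquitin ligase marks FANCD2 and FANCI, and the cut crosslink is then handed to recombination. Both systems work mainly while DNA is being copied, and many of their genes are transcribed in S phase by E2F factors.

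The libraries held 47564377 to 71378893 estimated reads. Across genes, r was at least 0.993 within a group and at most 0.967 between groups. The mitochondrial share of reads was 1.65% and 1.78% in controls, and 3.52% and 3.11% in treated cells. The 7 epithelial markers summed to 8797 and 8872 CPM with DMSO (counts scaled to library size) and to 13360 and 14416 with MS1943. They did not move together. By the gene test given below, KRT5, EGFR and KRT17 were higher, KRT8 and CDH1 were lower, and EPCAM and KRT18 did not pass. The leukocyte markers summed to 148 and 164 CPM against 86.4 and 87.5, nearly all of it CD14, with PTPRC and CD3E at or near 0. The 5 fibroblast markers summed to 20.8 and 21.3 CPM against 28.3 and 31.7, nearly all COL1A1, with DCN and LUM at or near 0. The 4 endothelial markers, chiefly KDR, summed to 5.90 and 6.20 CPM against 2.47 and 2.67. The part of these shifts in the results was not tested.

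Short stretches around the E2F sequence words found at members' start sites are shown first. An E2F word here is any of TTTCCCGC, TTTGGCGC, TTTCGCGC and TTTGCCGC on either strand. Start-site windows of 250 bases before to 50 bases after the start (RefSeq, GRCh38.p14) were given for 34 members, and none for NBN, RAD54B, FANCI and RMI2. The 4 genes are those with the largest falls that hold a word, and capitals mark the word. For EXO1 and FANCD2 the word lies at the start site, so a site of 30 bases is given (EXO1 at chr1:241848197-241848226, plus strand; FANCD2 at chr3:10026424-10026453, plus strand). For FANCA (chr16:89816648-89816897, minus strand) and RMI1 (chr9:83980555-83980804, plus strand) the 250 bases before the start are given.
EXO1: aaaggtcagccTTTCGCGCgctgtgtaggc
FANCD2: cgtcgggcctgGCGGGAAAgtcgaaaacta
FANCA: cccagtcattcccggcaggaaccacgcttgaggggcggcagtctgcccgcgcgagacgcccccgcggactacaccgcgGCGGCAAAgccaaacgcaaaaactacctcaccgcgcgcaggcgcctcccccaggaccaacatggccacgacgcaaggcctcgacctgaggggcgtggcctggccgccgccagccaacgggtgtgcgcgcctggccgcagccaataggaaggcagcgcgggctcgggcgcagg
RMI1: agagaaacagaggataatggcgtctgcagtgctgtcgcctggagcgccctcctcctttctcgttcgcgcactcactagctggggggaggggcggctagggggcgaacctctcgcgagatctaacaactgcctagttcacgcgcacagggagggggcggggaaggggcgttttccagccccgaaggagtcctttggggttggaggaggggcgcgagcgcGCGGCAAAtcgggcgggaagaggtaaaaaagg

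The word began 5 bases after the start in EXO1, at base -2 in FANCD2, at base -172 in FANCA and at base -32 in the second of 2 windows of RMI1. XRCC2 (base 22), FANCC (bases -172 and -46) and TOPBP1 (base -7) also held one. Members with a word thus numbered 7 of 34 (20.6%), against 6.36% of 11535 tested protein-coding genes with a window and 3.99% of all 27305 genes with a window. In the list of replication fork genes 14 of 20 (70.0%) held one. Among the members with a window, 6 of the 26 that fell and 1 of the other 8 held a word. Of the genes that fell by more than 1 on the log2 scale, EXO1 held a word and BRIP1, RAD54L, RAD51AP1 and BLM did not. Only exact words were counted, so a gene without one may still hold a close variant. Any part of E2F factors in the fall was not tested. The cell cycle homology words TTTGAA and TTCGAA, searched on both strands, were in the windows of BRIP1, UBE2T, ATM and FANCC. That is 11.8% of members, against 15.8% of the tested protein-coding genes. A match is only a run of letters, and no factor binding was measured.

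With MS1943, 30 of the 38 genes were lower and 2 were higher, RAD50 and RAD51D, and 6 did not pass the test (edgeR, adjusted p under 0.05). Of all 19358 tested genes, 29.4% were lower and 30.0% higher by the same test. The median log2 fold change was -0.46 over the 38 genes and -0.01 over all tested genes. Both MS1943 libraries lay below both DMSO libraries for 33 genes and above them for 3 (39.9% and 38.4% of all tested genes). The 2 groups overlapped for PALB2 and RAD51B. With scaling to total reads in place of TMM, the whole-transcriptome split moved from 5689 lower and 5799 higher to 6973 lower and 4619 higher, a shift of -0.11 in the median. Relative to the median of all genes, the 38 genes' median was -0.45 with either scaling. In bulk RNA, fewer cells in S phase and less of each RNA per cell cannot be told apart.

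**Figure D1:**
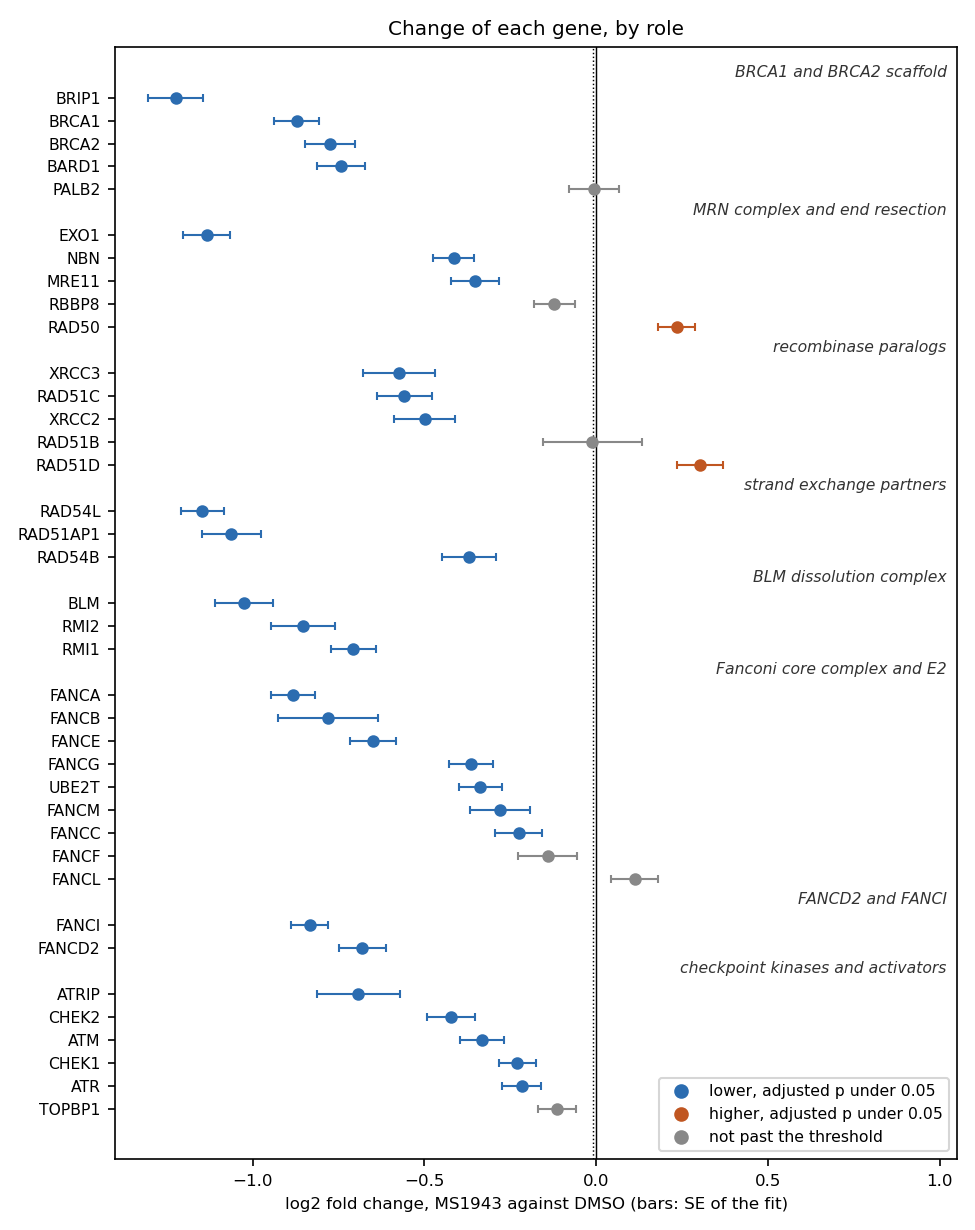
Fitted log2 fold change (x axis, MS1943 against DMSO) of each of the 38 genes, grouped by role, with the SE of the fit as bars; the dotted line is the median of all tested genes at -0.01. The blue points, 30 genes, lie left of 0 down to -1.22 for BRIP1, and only RAD50 and RAD51D are orange on the right.

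The BRCA1 and BRCA2 group fell in 4 of its 5 members, with a median log2 fold change of -0.77. BRCA1, a scaffold that promotes resection and recruits BRCA2 through PALB2 (chr17:43044295-43170245, hg38, minus strand), read 41.3 and 39.2 CPM with DMSO and 22.7 and 21.2 with MS1943. CPM here is relative to the scaled library size, and compares the same gene between libraries. The treated libraries were thus at 54.6% of DMSO, with a log2 fold change of -0.87 (SE 0.065, adjusted p = 9.14e-10). BRCA2, which loads the recombinase (chr13:32315474-32400266, plus strand), read 32.6 and 36.9 CPM with DMSO and 20.9 and 19.6 with MS1943. Its log2 fold change was -0.77 (SE 0.072, adjusted p = 2.03e-08), and the gap between groups was wider than the gap within either.

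BRIP1, the helicase that binds BRCA1 (chr17:61681266-61863521, minus strand), fell furthest of all 38 genes. It read 20.2 and 19.4 CPM with DMSO and 8.65 and 8.26 with MS1943, a log2 fold change of -1.22 (SE 0.080, adjusted p = 1.15e-10). BARD1, the RING partner of BRCA1, read 30.9 and 29.3 CPM against 17.4 and 18.6 (log2 fold change -0.74). PALB2, the bridge between BRCA1 and BRCA2, did not pass the test. It read 17.0 and 16.5 CPM with DMSO and 16.4 and 17.0 with MS1943 (log2 fold change -0.01, SE 0.073, adjusted p = 0.951). Its groups overlapped, and the whole spread of its 4 libraries was smaller than the drop seen in any of the other 4 genes of the group.

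In the resection group 3 of 5 genes fell and 1 rose, with a median of -0.35. EXO1, the long-range exonuclease (chr1:241847967-241895148, plus strand), read 42.3 and 39.4 CPM with DMSO and 19.3 and 17.8 with MS1943. Its log2 fold change was -1.13 (SE 0.068, adjusted p = 3.67e-11). The 3 subunits of the MRN complex, which binds the broken end first, went in opposite directions. NBN, the subunit that recruits the ATM kinase, read 67.9 and 63.5 CPM against 47.6 and 50.9 (log2 fold change -0.42, adjusted p = 5.94e-06). MRE11, the nuclease, read 26.0 and 24.6 CPM against 19.1 and 20.5 (log2 fold change -0.35, adjusted p = 0.000212). RAD50, the ATPase that holds DNA ends together (chr5:132556019-132646344, plus strand), read 79.6 and 80.4 CPM with DMSO and 94.7 and 93.6 with MS1943. It rose by a log2 fold change of 0.23 (SE 0.053, adjusted p = 0.000863), with no overlap between groups. RBBP8, the factor also called CtIP that starts resection, read 59.4 and 53.7 CPM against 52.4 and 51.4. Its treated values lay below both controls but it did not pass the test (log2 fold change -0.12, adjusted p = 0.0899). MRE11 lost its call when changes in mean transcript length were allowed for (log2 fold change -0.25, adjusted p = 0.058).

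The 5 paralogs of the recombinase form 2 complexes that help it assemble on single-stranded DNA. XRCC3 and RAD51C, the pair that makes up one of them, both fell. XRCC3 read 8.23 and 8.96 CPM with DMSO and 5.96 and 5.57 with MS1943 (log2 fold change -0.57, SE 0.10, adjusted p = 9.58e-05). RAD51C, which belongs to both complexes, read 21.0 and 18.4 CPM against 13.3 and 13.5 (log2 fold change -0.56, SE 0.079, adjusted p = 5.55e-06). XRCC2, found in the other complex, was at 12.3 and 12.2 CPM against 8.34 and 8.98 (log2 fold change -0.50). RAD51B and RAD51D belong to that same complex as XRCC2 and were not lower. RAD51B read 3.33 and 3.69 CPM with DMSO and 3.19 and 3.82 with MS1943, with overlapping groups (log2 fold change -0.01, SE 0.14, adjusted p = 0.956). RAD51D (chr17:35092208-35121522, minus strand) rose from 21.6 and 21.0 to 26.9 and 25.6 CPM (log2 fold change 0.30, SE 0.066, adjusted p = 0.000623). Of XRCC3's exon bases 76.7% are shared with KLC1 on the other strand, which rose from 50.0 and 53.3 to 88.0 and 93.6 CPM. The library kit does not mark strand, so how reads divide between XRCC3 and KLC1 is uncertain. Smaller opposite-strand overlaps with genes that were also read apply to RAD54L (25.1% of exon bases, with LRRC41), FANCA (23.6%, ZNF276) and FANCL (18.7%, VRK2). Those of CHEK2 (6.70%, HSCB), FANCI (5.90%, POLG), MRE11 (2.93%, ANKRD49) and ATM (0.597%, NPAT) are smaller still. LRRC41, ZNF276, VRK2, HSCB and POLG read higher in both MS1943 libraries than in both DMSO libraries. For ANKRD49 and NPAT the CPM of the groups overlapped. ATR and FANCF overlap by 16.4% with EIF2AK1P1 and 11.3% with GAS2, whose own CPM was near 0 in all 4 libraries.

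The listed partners that drive strand exchange all fell, as did the 3 listed genes of the BLM complex. RAD54L, a motor protein that helps the recombinase invade the sister duplex (chr1:46247688-46278473, plus strand), read 53.6 and 54.0 CPM with DMSO and 25.1 and 23.4 with MS1943. Its adjusted p of 7.32e-12 was the smallest of the 38 genes, at a log2 fold change of -1.15 (SE 0.062). RAD51AP1, which stimulates the recombinase, read 17.9 and 16.8 CPM against 7.90 and 8.79 (log2 fold change -1.06, SE 0.085). RAD54B, a relative of RAD54L, went from 18.5 and 17.0 to 13.3 and 14.2 CPM (log2 fold change -0.37), and shares 59.1% of its exon bases with FSBP on the same strand.

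BLM is the helicase that, with RMI1, RMI2 and a topoisomerase, dissolves joined molecules without crossing over. BLM (chr15:90717327-90816165, plus strand) read 18.1 and 16.6 CPM with DMSO and 8.24 and 8.83 with MS1943 (log2 fold change -1.02, SE 0.085, adjusted p = 3.59e-09). RMI2 read 11.8 and 11.5 CPM against 6.51 and 6.40 (log2 fold change -0.85, SE 0.093). RMI1 read 33.9 and 31.8 CPM against 19.7 and 20.5 (log2 fold change -0.71). In these 3 genes the groups were far apart next to the gap between libraries of a group. The topoisomerase, TOP3A, is not among the 38 and was higher. It read 39.0 and 38.9 CPM with DMSO and 45.6 and 42.2 with MS1943 (log2 fold change 0.18, edgeR adjusted p = 0.0171). Per transcript length (TPM) its groups overlapped, at 40.4 and 39.8 against 40.8 and 37.5.

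Of the Fanconi core genes and the E2 enzyme, 7 of 9 fell and none rose, with a median of -0.34. FANCA, a large core subunit (chr16:89737549-89816657, minus strand), read 44.1 and 46.1 CPM with DMSO and 25.3 and 23.5 with MS1943 (log2 fold change -0.88, SE 0.064, adjusted p = 5.54e-10). FANCB, a partner of FANCL in the catalytic part of the core, had the lowest TPM of all 38 genes and read 4.36 and 4.10 CPM against 2.29 and 2.67 (log2 fold change -0.78, SE 0.14, adjusted p = 0.000116). FANCE, which contacts FANCD2, fell by 0.65 on the log2 scale. FANCG fell by 0.37 and UBE2T, the E2 enzyme that supplies ubiquitin, by 0.34. FANCM, the translocase that brings the core to DNA, fell by 0.28 and FANCC by 0.23, and each lost its call under DESeq2 (adjusted p = 0.0762 and 0.0588). FANCF read 11.1 and 10.6 CPM with DMSO and 9.85 and 9.86 with MS1943, below both controls but past no threshold (log2 fold change -0.14, adjusted p = 0.172). FANCL, the ubiquitin ligase subunit itself, read 24.9 and 24.9 CPM against 25.4 and 28.5 (log2 fold change 0.11, adjusted p = 0.177). FANCL's treated libraries lay above the controls, the second one chiefly, and with total-read scaling its value was -0.0016.

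Both targets of that ligase fell. FANCI (chr15:89243949-89317261, plus strand) read 98.6 and 98.2 CPM with DMSO and 56.2 and 54.2 with MS1943 (log2 fold change -0.83, SE 0.055, adjusted p = 1.28e-10). FANCD2 (chr3:10026414-10101930, plus strand) read 40.0 and 36.5 CPM against 24.6 and 23.0 (log2 fold change -0.68, SE 0.068, adjusted p = 4.92e-08). The groups were well separated for both.

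The checkpoint genes, which sense breaks and stalled forks and hold the cell cycle, were lower in 5 of 6 cases, with a median of -0.28. ATRIP, the partner that brings ATR to single-stranded DNA, read 9.13 and 7.38 CPM with DMSO and 5.40 and 4.74 with MS1943 (log2 fold change -0.69, SE 0.12, adjusted p = 6.03e-05). ATRIP shares 27.9% of its exon bases with TREX1 on the same strand. TREX1 read 2.38 and 2.67 CPM with DMSO and 3.93 and 3.52 with MS1943. Whether this overlap adds to the fall of ATRIP was not tested. CHEK2, the effector kinase downstream of ATM, read 28.7 and 26.5 CPM against 20.0 and 21.2 (log2 fold change -0.42, SE 0.069, adjusted p = 3.01e-05). The kinases ATM (-0.33), CHEK1 (-0.23) and ATR (-0.22) also fell, and ATM lost its call with length offsets (log2 fold change -0.24, adjusted p = 0.065). TOPBP1, which activates ATR, read 91.1 and 86.4 CPM against 81.2 and 82.8 and did not pass (log2 fold change -0.11, adjusted p = 0.081). RBBP8, FANCF and TOPBP1 passed as lower with total-read scaling, at log2 fold changes of -0.23, -0.25 and -0.23.

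**Figure D2:**
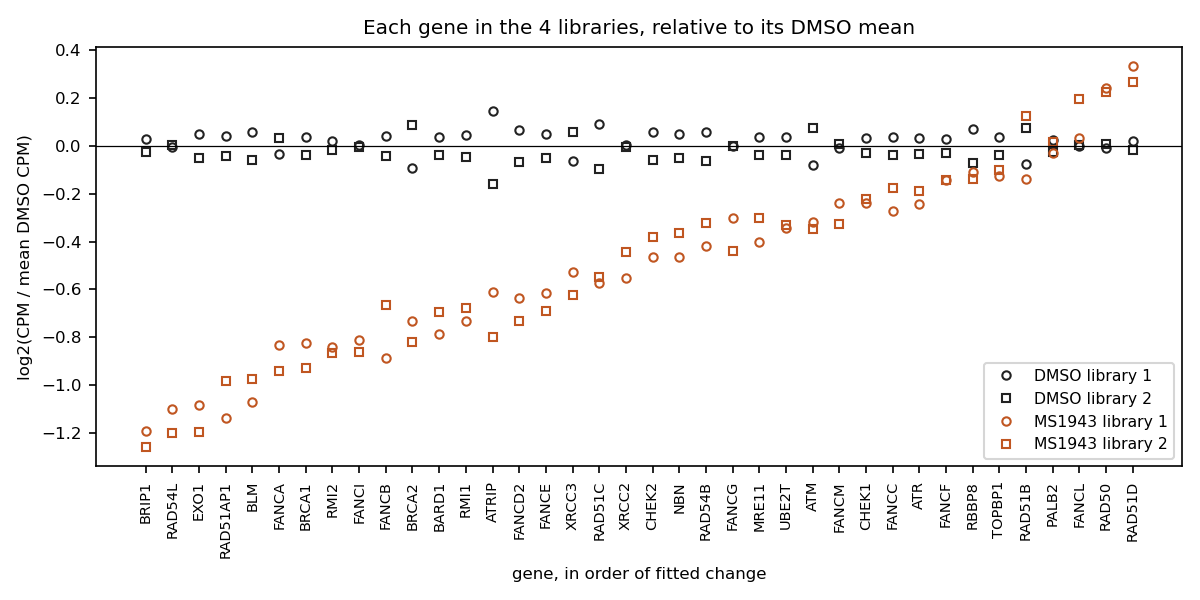
Each of the 38 genes in the 4 libraries, as the log2 of its CPM over its mean DMSO CPM (y axis), in the order of fitted change (x axis). The orange MS1943 libraries lie below the black DMSO libraries for 33 genes, overlap with them for PALB2 and RAD51B and lie above for FANCL, RAD50 and RAD51D.

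Salmon divides a gene's reads among its annotated transcripts, and this gave a further readout beside the total of each gene. The 38 genes have 456 transcripts in the annotation, of which 238 are labelled protein coding, 73 as substrates of nonsense-mediated decay, 71 as retaining an intron, 73 as processed transcripts and 1 as non-stop decay. Reads were summed over the protein-coding transcripts and over all others, and edgeR tested whether the split changed in the 29 members with enough reads in both classes. It changed in 5 of the 29 (17.2%), against 11.0% of the 9000 genes tested. In all 5 the share of the other transcripts grew, but how often it grew among all changed genes is not given here. These 5 were RAD50, RAD51D, CHEK1, RAD54B and EXO1. The call is fragile: leaving out 1 library left 1 call without DMSO library 1, 3 without DMSO library 2, 1 without MS1943 library 1 and 4 without MS1943 library 2.

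Both genes that rose are in this set. In RAD50 the protein-coding transcripts read 34.0 and 35.1 CPM with DMSO and 35.9 and 35.0 with MS1943. The other transcripts of RAD50 read 45.6 and 45.3 CPM with DMSO and 58.7 and 58.6 with MS1943, so their share of reads went from 57.2% and 56.3% to 62.0% and 62.6% (adjusted p = 0.0272). Most of these reads were assigned to RAD50-209, a transcript of 4373 bases annotated as a decay substrate. RAD50-209 took 2897 and 3287 reads with DMSO and 3645 and 2500 with MS1943. Per length it held 62.6% and 61.3% of the gene's length-scaled abundance (TPM) with DMSO and 65.0% and 66.9% with MS1943. A second decay substrate, RAD50-203, held 3.13% and 2.74% of the gene's TPM with DMSO and 6.90% and 7.32% with MS1943.

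In RAD51D the protein-coding transcripts read 17.5 and 17.9 CPM with DMSO and 19.5 and 18.5 with MS1943. Its other transcripts read 4.09 and 3.15 CPM against 7.37 and 7.17, a share of 18.9% and 15.0% against 27.4% and 28.0% (adjusted p = 0.0161). RAD51D-215, a decay substrate of 2214 bases, went from 65.7 and 51.5 reads to 229 and 146. When only the reads of protein-coding transcripts were tested, RAD50 had a log2 fold change of 0.04 (SE 0.057, adjusted p = 0.524) and RAD51D one of 0.11 (SE 0.071, adjusted p = 0.199). On those reads 30 of the 38 genes were lower, none was higher and 8 did not pass. That fit covered 13969 genes with a median log2 fold change of -0.01, and the shares lower and higher among them are not given here. The test on coding reads was added after the class split had been seen.

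In the other 3 genes the second class was small. In CHEK1 its share of reads was 2.13% and 1.91% with DMSO and 4.53% and 3.72% with MS1943 (adjusted p = 0.0156). In RAD54B it was 1.34% and 1.99% against 8.69% and 5.57% (adjusted p = 0.00711), and in EXO1 0.148% and 0.397% against 2.18% and 2.15% (adjusted p = 0.00579). The EXO1 share rests on few reads, since EXO1-206 was assigned 0 reads in both DMSO libraries and 25.8 and 11.0 with MS1943. CHEK1 shares 1.22% of its exon bases with STT3A on the same strand, which read 328 and 293 CPM with DMSO and 444 and 416 with MS1943. RAD54B shares 59.1% of its exon bases with FSBP, also on the same strand. FSBP read higher in both MS1943 libraries than in both DMSO libraries. Whether these overlaps add to the CHEK1 and RAD54B shares was not tested. On coding reads alone the 3 genes also fell, with log2 fold changes of -0.25 for CHEK1, -0.45 for RAD54B and -1.15 for EXO1.

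For 33 of the 38 genes the log2 fold change on coding reads was within 0.1 of that on all reads. The others were RAD50, RAD51D, XRCC2, RAD51C and BLM. RAD51C fell further on coding reads (-0.72 against -0.56), and BLM less far (-0.78 against -1.02). In BLM the other transcripts held 26.9% and 26.7% of reads with DMSO, 6.66% in MS1943 library 1 and 21.7% in MS1943 library 2, so the treated libraries disagreed. The division of reads between overlapping transcripts is an estimate whose error the files do not hold.

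**Figure D3:**
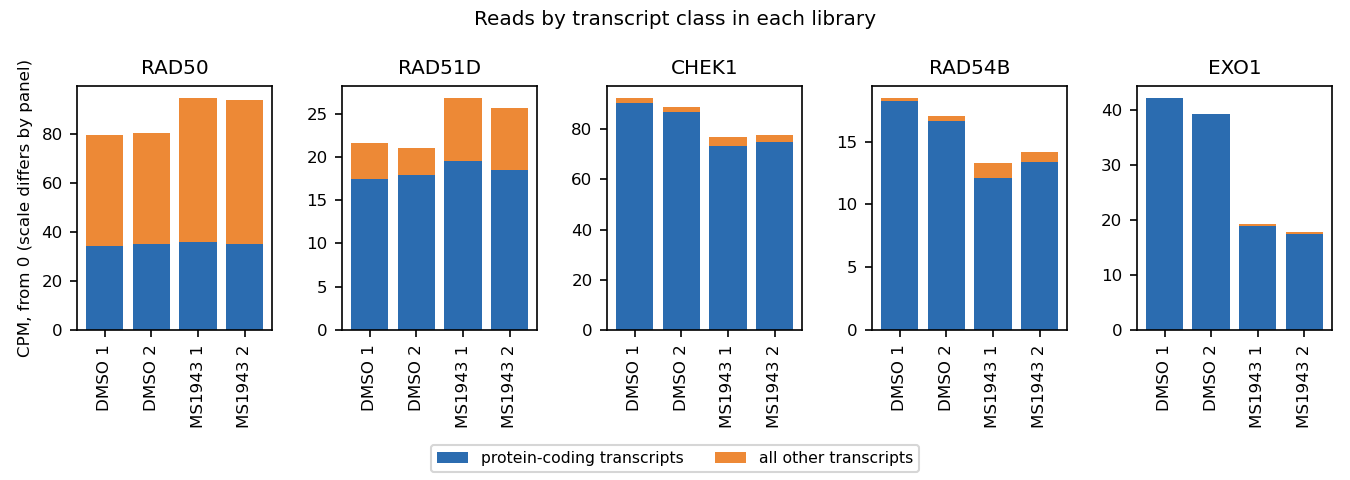
CPM of each library (bars, y axis from 0) for the 5 genes whose transcript class use changed, with reads of protein-coding transcripts in blue and of all other transcripts in orange. In RAD50 the blue part stays between 34.0 and 35.9 while the orange part grows from 45.3 and 45.6 to 58.6 and 58.7; in EXO1 the orange part is barely visible.

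Levels per transcript length, in TPM, can be compared between genes. With DMSO the order was led by CHEK1 at 108 ± 1.20 TPM (SD, n = 2), UBE2T at 76.3 ± 1.39 and FANCI at 68.3 ± 0.319, and these 3 stayed first with MS1943 at 87.6 ± 3.02, 54.7 ± 0.255 and 34.5 ± 0.346. Their libraries did not overlap one another in either group. Below them RAD51C (42.1 ± 1.71), RBBP8 (40.4 ± 2.41) and RAD54L (40.2 ± 0.549) did not differ beyond their spread with DMSO. With MS1943 that trio separated: RBBP8 took place 4 at 31.0 ± 1.13, RAD51C place 10 at 22.8 ± 0.794 and RAD54L place 13 at 16.2 ± 1.68. The lowest with DMSO were FANCB at 2.50 ± 0.123, FANCM at 3.67 ± 0.144, FANCF at 3.78 ± 0.0131 and BRCA2 at 4.45 ± 0.835, and FANCM, FANCF and BRCA2 did not differ beyond BRCA2's spread. BRCA1, at 18.5 ± 1.59 TPM with DMSO and 10.0 ± 2.19 with MS1943, was in the middle of the order.

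RAD50 moved up from place 14 to place 7 and FANCL from 11 to 5, while RAD51AP1 dropped from 15 to 23 and BRIP1 from 32 to 37, next to last. RAD50 read 23.4 and 24.7 TPM with DMSO and 26.1 and 25.3 with MS1943. RAD51D read 15.1 and 14.0 TPM against 16.4 and 15.0, so on this scale its groups overlapped. The order of the 38 genes was otherwise similar in both groups (Spearman rho 0.94 over 38 genes of the same libraries). Between the DMSO level and the log2 fold change, rho was 0.02 over the same genes. Both values describe genes within these libraries, and genes are not replicates.

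**Figure D4:**
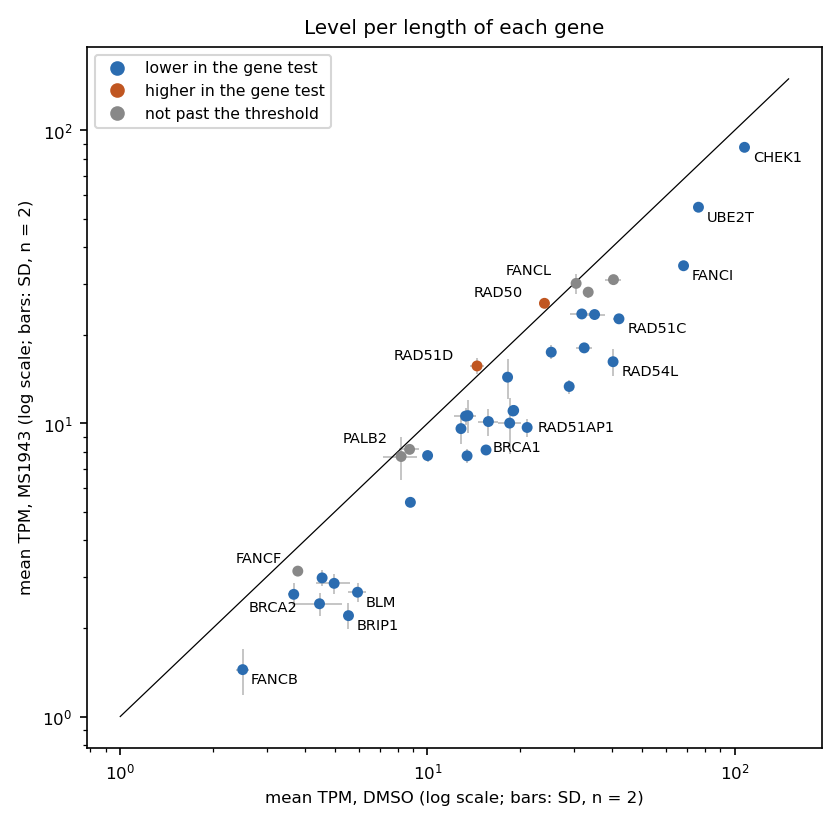
Mean TPM with MS1943 (y axis, log scale) against mean TPM with DMSO (x axis, log scale) for the 38 genes; bars are the SD of 2 libraries and the line marks equality. CHEK1, UBE2T and FANCI are the most abundant and FANCB the least; RAD50 and RAD51D lie on or just above the line.

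Other genes of the same processes were read from lists set beside the 38. Their counts stand beside the 29.4% lower and 30.0% higher of all tested genes. Of 41 further genes of recombination and crosslink repair, 22 fell and 8 rose, with a median of -0.26. DNA2, a nuclease that resects ends alongside EXO1, fell from 30.8 and 28.7 to 12.3 and 13.6 CPM (log2 fold change -1.20). BABAM1, a subunit of the BRCA1-A complex, rose from 145 and 140 to 266 and 261 CPM (log2 fold change 0.89). MUS81, a nuclease that cuts joined molecules, rose from 41.1 and 43.1 to 67.8 and 67.7 CPM (log2 fold change 0.69).

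Among 11 genes of the 53BP1 and shieldin axis, which shields ends from resection, 5 fell and 3 rose (median -0.06). H2AX, the histone variant phosphorylated at breaks, fell by 1.32 on the log2 scale, SHLD2 by 0.44 and PAXIP1 by 0.37. Of 10 genes of non-homologous end joining, the rival pathway that ligates ends directly, 3 fell and 3 rose (median -0.11). These shares are near those of all tested genes. PAXX fell by 0.85 and XRCC5, the Ku80 subunit, by 0.37, while POLL, a gap-filling polymerase, rose by 0.50. Of 10 checkpoint partners 7 fell and 2 rose (median -0.31), led by CDC25A (-0.84), CLSPN (-0.83) and TIMELESS (-0.78).

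Replication fork genes fell in 22 of 23 cases, with a median of -0.63. GINS2, MCM2 and LIG1, of the replicative helicase and the ligase, fell by 1.28, 1.04 and 1.03 on the log2 scale, and GINS3 rose by 0.48. Of 10 E2F and proliferation genes 8 fell and 2 rose, with a median of -1.19. MKI67, a marker of cycling cells, read 243 and 272 CPM with DMSO and 96.3 and 89.1 with MS1943, FOXM1 fell by 1.37 and E2F8 by 1.76. The proliferation and replication genes therefore moved in the same direction as most of the 38, and their part in the fall of the recombination and Fanconi genes was not tested.

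**Figure D5:**
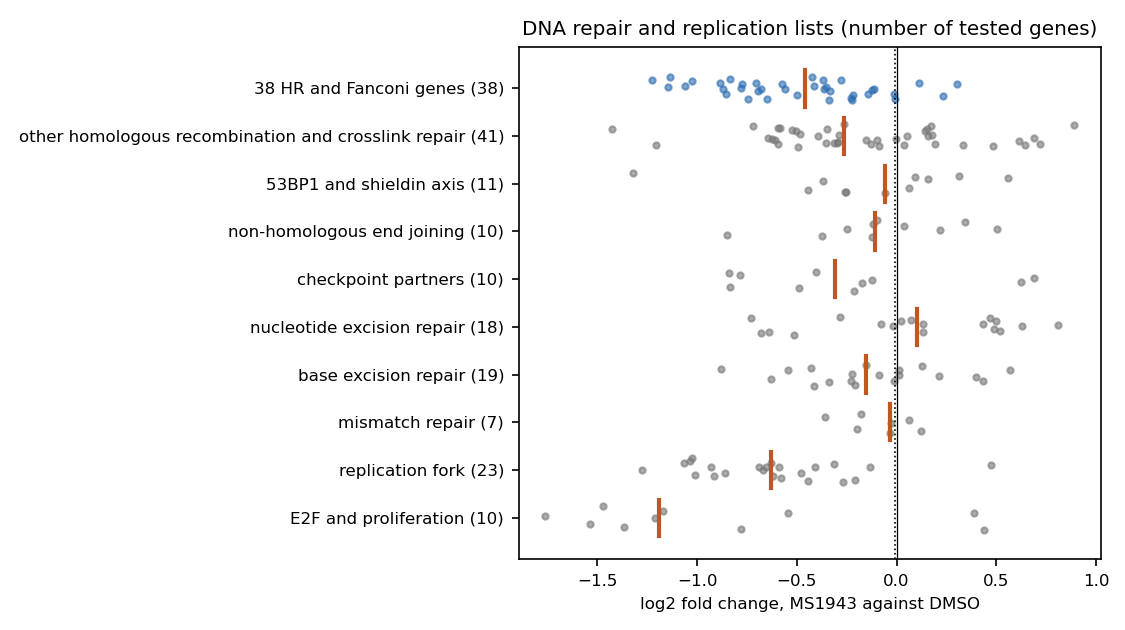
Log2 fold change (x axis) of each tested gene in the 38 and in 9 other lists (rows, with the number of genes); points are genes, jittered vertically, orange bars are list medians and the dotted line is the median of all tested genes. The 38 genes have a median of -0.46, between the checkpoint partners at -0.31 and the replication fork list at -0.63.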

How the data were processed

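RNA-seq of 4 MDA-MB-468 libraries was used, grouped by the treatment label. The tools were Salmon 0.9.1, DESeq2 and R 3.4.3 on hg38, per the submitters' processing notes. The sources used here give neither Salmon's options nor its annotation release. The deposited files give Salmon's estimated counts and TPM per transcript, per the file headers. Salmon shares reads among transcripts with common sequence, so these splits carry an unmeasured error. Of 197653 transcripts, 193505 matched GENCODE 29; the other 4148 (0.482% to 0.496% of reads) were left out. Estimated counts were summed per gene and rounded.

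The test was edgeR 4.0.16 (R 4.3.3), quasi-likelihood, with TMM scaling and filterByExpr, and Benjamini-Hochberg adjustment over 19358 genes. The SE is the log2 fold change over the square root of F. Transcript class use was tested with diffSpliceDGE over 9000 genes. Both were tested on simulated data. Alternatives were total-read and median-of-ratios scaling, no filter, length offsets, DESeq2 1.42.0, each library left out, and, chosen after seeing the data, coding reads alone.

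The members and lists were chosen with earlier results of these data known. Per-library values are given for BRCA1, BRCA2, the 2 largest changes of each role group, members that rose or did not pass, and some others. Of other lists, up to 3 genes with the smallest adjusted p are given, plus GINS3 and TOP3A, chosen after their values were seen. Some genes falling under this rule are not reported here.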

Additional observations from a re-analysis of the deposited data

How the results depend on the processing

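The number of the 38 genes that were lower ranged from 28 (DESeq2) to 33 (total-read scaling). With total-read scaling the median of all tested genes was also lower, at -0.12, and it was -0.02 with DESeq2. Apart from the split given above for total-read scaling, the shares of all genes called under these settings are not given here. The number higher was 2 except with length offsets (1, since RAD51D had 0.22 and an adjusted p of 0.0597) and on coding reads alone (0). The median of the 38 was -0.57 with total-read scaling and ranged from -0.51 to -0.44 when 1 library was left out. The number with changed class use ranged from 1 to 4 when 1 library was left out, and was 4 without the filter. As shares of TPM, which give no test, the other transcripts were also higher in both MS1943 libraries for all 5 (RAD51D 44.6% and 39.9% against 54.9% and 56.4%). Calls were lost for FANCC without MS1943 library 1 (adjusted p = 0.0723) and for FANCM without MS1943 library 2 (0.0521). RBBP8 passed with length offsets (-0.28) and without DMSO library 2 (-0.20), and TOPBP1 also passed without DMSO library 2 (-0.16). Signs turned only for 3 genes that never passed. FANCL was -0.0016 with total-read scaling. PALB2 was 0.0050 with median-of-ratios scaling, 0.0042 with length offsets, and, with 1 library left out, -0.040 (MS1943 library 2) to 0.015 (DMSO library 1). RAD51B was 0.00011 with median-of-ratios scaling, 0.0069 with length offsets, and, with 1 library left out, -0.15 (MS1943 library 2) to 0.11 (MS1943 library 1). The cause of these changes was not tested.

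No paired analysis was run because the labels give the libraries no replicate numbers shared between the groups. Whether the letters in the titles mark pairs of a DMSO and an MS1943 library is not stated. With 2 libraries a group, a lone library is assumed to vary like the other group when 1 is left out. Depth limits FANCB (122 to 308 reads a library) and RAD51B (175 to 277) most.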

Other observations

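Nucleotide and base excision repair were read in the same way, beside the 29.4% lower and 30.0% higher of all tested genes. Of 18 nucleotide excision repair genes, which remove bulky lesions such as those from ultraviolet light, 8 rose and 5 fell, with a median log2 fold change of 0.10. ERCC6, which acts where transcription stalls, rose from 21.7 and 23.1 to 38.7 and 39.7 CPM (log2 fold change 0.81, adjusted p = 1.88e-09, edgeR). ERCC2, a helicase of TFIIH, fell by 0.64 on the log2 scale. Of 19 base excision repair genes 8 fell and 4 rose (median -0.15): OGG1 and UNG, glycosylases that remove oxidised bases and uracil, fell by 0.88 and 0.54, and the endonuclease APEX1 fell by 0.63.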
